A study of Arabidopsis thaliana with 8 samples.

Results

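The genotype by benzyladenine interaction in Arabidopsis thaliana roots is the change that benzyladenine (BA) made in hy5 mutant roots less the change it made in wild-type (WT) roots. It was measured over all 8 of the 8 libraries of the series, as (hy5 BA minus hy5 Control) minus (WT BA minus WT Control) on gene-level estimated counts. Seedlings grew upright on solid 0.5x Murashige and Skoog medium for 1 week, and their roots were then cut off and put into liquid medium of that strength. The hy5 BA group (2 libraries) was roots of the hy5 mutant in medium with 0.1 µM of the cytokinin BA, and the hy5 Control group (2 libraries) was mutant roots in the vehicle medium. The WT BA and WT Control groups (2 libraries each) were wild-type roots in the same media. The labels give no hy5 allele, wild-type accession or treatment length, and all groups share the cut that separated root from shoot.

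Cytokinins are sensed in Arabidopsis by the receptor kinases AHK2, AHK3 and AHK4, which pass phosphate through AHP phosphotransfer proteins to the type-B response regulators, transcription factors in the nucleus. Type-B regulators switch on type-A regulators, proteins that damp the pathway, together with cytokinin oxidases and cytokinin response factors. HY5, of the bZIP class, promotes responses to light and binds DNA elements with an ACGT core, and HYH is its closest homolog. In roots, cytokinin restrains growth and lateral root formation, and it raises ethylene synthesis.

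HY5 (AT5G11260, chr5:3593335-3595073 on the minus strand, TAIR10.1) stood at 1.97 and 0.989 CPM (counts scaled to an equal library total) in hy5 BA and at 0.826 and 0.931 CPM in hy5 Control, against 31 and 31.3 CPM in WT BA and 32.4 and 31.1 CPM in WT Control. All 4 mutant libraries lay far below all 4 wild-type libraries, which fits their labels. HYH (AT3G17609, chr3:6023844-6024710, plus strand) had 1.75 and 1.70 CPM in hy5 BA and 1.13 and 1.55 CPM in hy5 Control, against 10.5 and 12.4 CPM in WT BA and 10.8 and 10.9 CPM in WT Control. In neither gene did the interaction pass edgeR's quasi-likelihood test with Benjamini-Hochberg adjustment: it was 0.80 ± 0.30 on the log2 scale (± SE, adjusted p = 0.258) for HY5 and 0.28 ± 0.24 (adjusted p = 0.63) for HYH.

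Libraries held between 29928501 and 35289411 estimated counts. Endodermis markers summed to 469 to 576 CPM and root hair markers to 52.4 to 99.2 CPM in every library, and no root marker was at 0 in all of them. Shoot markers summed to 9.21 to 65.4 CPM. In hy5 BA 2 and hy5 Control 1, 23.5% and 21.6% of all transcripts had an estimated count off a whole number by less than 0.001 but not equal to it. The other 6 libraries had 1.34 to 1.53% of such transcripts, so counts of calls are also given without hy5 BA 2 and hy5 Control 1. Whether replicates were grown apart is not stated in the labels, and the p-values therefore measure only the spread between these samples, which may be technical.

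Of 22682 genes tested, 110 had an interaction with an adjusted p under 0.05, which is 0.485% of all genes, and these are the genes called below. The BA response was more negative in hy5 than in WT for 99 of them (0.436% of all genes) and more positive for 11 (0.0485%). At an unadjusted p under 0.05, 8.42% of all genes were more negative and 5.3% more positive. A negative value can come from a smaller rise, from a rise seen in WT alone or from a fall seen in hy5 alone, and all of these occurred. Among the 99 genes the interaction had a median of -0.65 (quartiles -0.83 and -0.55), and 12 had a size of at least 1 on the log2 scale. The BA response over hy5 Control had quartiles of -0.62 and 0.05 in these genes, against 0.05 and 0.69 for the response over WT Control. With BA present, their level in hy5 less that in WT had a median of 0.02, with differences of both signs (quartiles -0.22 and 0.41, range -1.32 to 1.54). In control medium it was higher in hy5 by a median of 0.73 (quartiles 0.40 and 1.21). These medians share libraries with the interaction that selected the genes, and they are descriptions.

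**Figure D1:**
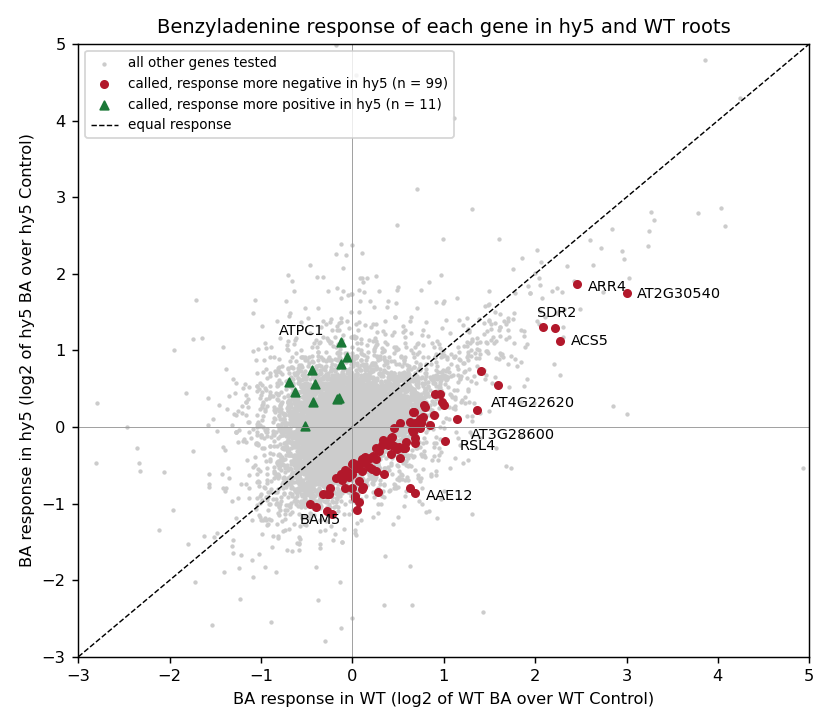
BA response of each tested gene in hy5 (vertical axis, log2 of hy5 BA over hy5 Control) against that in WT (horizontal axis, log2 of WT BA over WT Control), with the 99 genes called more negative as circles and the 11 called more positive as triangles. The called circles lie below the dashed line of equal response from -1.14 to 1.87 on the vertical axis, and 21 genes, 1 of them called, lie outside the axes.

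Both libraries of each group bear on these calls, since a group has only 2. The direction of all 110 genes was kept in all 8 runs that left out 1 library, but the calls were not. That direction could hardly have turned. In each of the 99 and the 11 genes, every library ratio of BA to Control in hy5 lay on 1 side of every ratio in WT. Such separation was seen in 16.1% (more negative) and 12.7% (more positive) of all genes. The kept direction therefore lends the calls no support. Without hy5 Control 1 there were 5 calls, 4 of them among the 110, and without hy5 BA 2 there were 6, of which 4 were among the 110. Leaving out both of these libraries gave 5 calls, 2 of them shared. The count was 19 without WT BA 1 and 19 without WT BA 2, 23 without hy5 Control 2 and 81 without WT Control 2. It rose to 341 without WT Control 1 and to 281 without hy5 BA 1, and these runs held 102 and 96 of the 110 genes. Called in all 8 runs were AT3G28600 and AT5G36670, and 20 of the 99 and 1 of the 11 were called in at least 4 runs. A run with 1 library in a group assumes that this library varies as the other groups do.

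**Figure D2:**
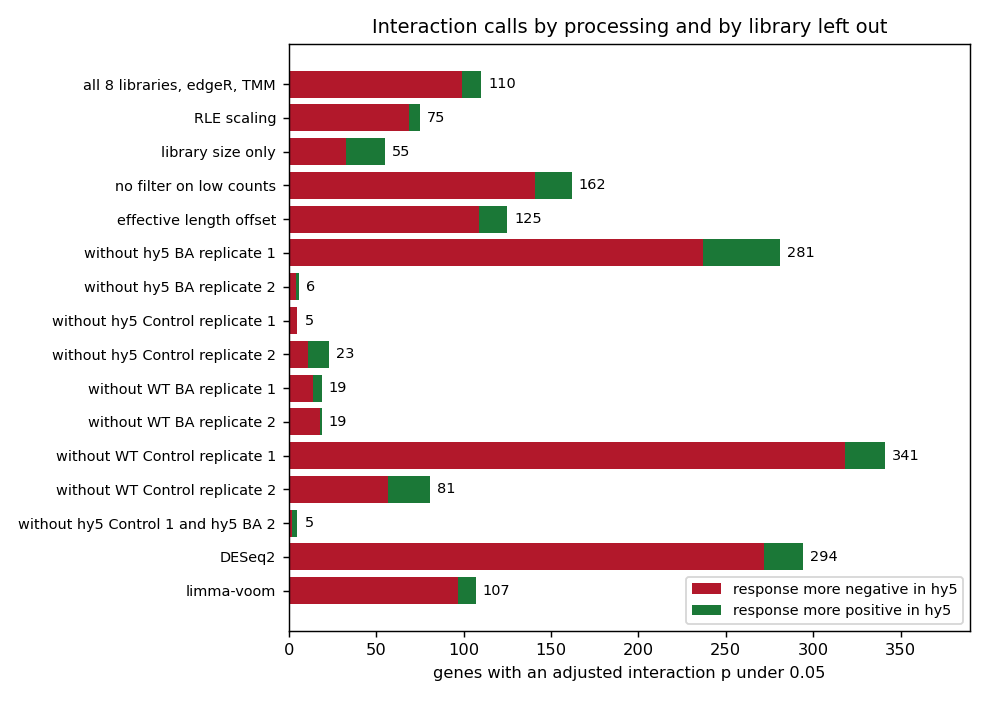
Number of genes with an adjusted interaction p under 0.05 (horizontal axis) by processing and by library left out, split into genes with a more negative (red) and a more positive (green) BA response in hy5. All 8 libraries gave 110 calls, and single libraries left out gave between 5 and 341.

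Reading the pathway from its top, no gene for a receptor or phosphotransfer protein was called among 9 tested, and their median interaction was -0.05, against -0.01 over all genes. The 2 members with the smallest p were the receptor AHK4 (named WOL in the annotation) and the phosphotransfer protein AHP2. AHK4 had 83.9 and 80.3 CPM in hy5 BA and 49.8 and 49.4 CPM in hy5 Control, against 111 and 106 CPM in WT BA and 53.6 and 53.8 CPM in WT Control. Its level rose with BA in both genotypes, by 0.73 in hy5 and 1.02 in WT on the log2 scale, and the difference of -0.29 ± 0.09 did not pass (edgeR, adjusted p = 0.186). AHP2 had an interaction of -0.27 ± 0.10 (edgeR, adjusted p = 0.25). None of 6 type-B response regulators was called, with a median of 0.03. ARR11 had 11.0 and 12.9 CPM in hy5 BA and 12.9 and 13.6 CPM in hy5 Control, against 12.9 and 14.5 CPM in WT BA and 21.2 and 20.7 CPM in WT Control. The lower WT BA values stood apart from WT Control, while the hy5 groups lay close together, and the interaction of 0.46 ± 0.14 missed the threshold (edgeR, adjusted p = 0.152). ARR12 (RR12 in the annotation) had an interaction of -0.18 ± 0.10 (edgeR, adjusted p = 0.418).

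The type-A response regulators, the rapid targets that damp cytokinin signalling, held 1 call among 10 genes. DESeq2, an alternative model, called 3 of the 10. ARR4 (AT1G10470, chr1:3441988-3444360, minus strand), a type-A regulator also known to bind phytochrome B, had 123 and 115 CPM in hy5 BA and 31.3 and 33.9 CPM in hy5 Control, against 165 and 161 CPM in WT BA and 29.4 and 29.9 CPM in WT Control. The Control groups lay near each other, both BA groups were far higher, and the hy5 BA libraries did not reach the WT BA ones. ARR4 rose with BA in both genotypes, by 86.4 CPM in hy5 and 133 CPM in WT, and its interaction was -0.59 ± 0.10 on the log2 scale (edgeR, adjusted p = 0.0211). Most other members leaned the same way without passing. Of the 10, 8 were below 0, against 11720 of all 22682 genes tested, and the median was -0.41. At an unadjusted p under 0.05 there were 5 more negative and none more positive, against 8.42% and 5.3% of all genes. ARR7 had 135 and 111 CPM in hy5 BA and 16.6 and 21.2 CPM in hy5 Control, against 197 and 185 CPM in WT BA and 18.6 and 20.1 CPM in WT Control, an interaction of -0.60 ± 0.16 (edgeR, adjusted p = 0.138). ARR5 had an interaction of -0.47 ± 0.12 (edgeR, adjusted p = 0.0911) and ARR16 one of -0.66 ± 0.21 (edgeR, adjusted p = 0.179). ARR3 and ARR8 lay above 0, at 0.11 ± 0.14 and 0.15 ± 0.10. BA raised 9 of the 10 in hy5, where 3.11% of all genes rose, and 10 of 10 in WT, where 3.88% rose, with median responses of 1.60 and 1.97 on the log2 scale.

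None of 8 cytokinin response factors and other cytokinin-induced genes was called by edgeR, and 1 was called by DESeq2. All 8 interactions were below 0, or 7 of 8 with library size only. Their median was -0.45, with median BA responses of 0.23 in hy5 and 0.86 in WT. SHY2 (IAA3), an Aux/IAA repressor through which cytokinin limits auxin response in the root, had 68.5 and 58.5 CPM in hy5 BA and 39.9 and 41.9 CPM in hy5 Control, against 86.7 and 75.1 CPM in WT BA and 37.3 and 34.0 CPM in WT Control. Both BA groups were above both Control groups, and the hy5 BA libraries were below the WT BA ones. Its interaction was -0.54 ± 0.13 (edgeR, adjusted p = 0.0729), which passed without WT Control 1 (adjusted p = 0.0362) and without hy5 BA 1 (adjusted p = 0.0279). CRF4, an AP2-type response factor, had an interaction of -0.65 ± 0.18 (edgeR, adjusted p = 0.127). LBD3, a LOB-domain gene induced by cytokinin, had 16 and 14.4 CPM in hy5 BA and 2.39 and 3.79 CPM in hy5 Control, against 37.5 and 35.1 CPM in WT BA and 4.30 and 5.11 CPM in WT Control. Its WT BA libraries lay well above the hy5 BA ones, but its hy5 Control libraries were also below the WT ones, and the interaction was -0.65 ± 0.22 (edgeR, adjusted p = 0.202).

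Genes that break down or conjugate cytokinins, 9 of them tested, held no call and had a median interaction of -0.29, with 8 below 0. The glucosyltransferase UGT76C2 had 15.4 and 14.4 CPM in hy5 BA and 12.2 and 12.7 CPM in hy5 Control, against 19.9 and 18.9 CPM in WT BA and 12.2 and 13.3 CPM in WT Control. Only its WT BA libraries stood well above the rest, yet the interaction of -0.34 ± 0.13 did not pass (edgeR, adjusted p = 0.242). For the cytokinin oxidase CKX6 the value was -0.53 ± 0.20 (edgeR, adjusted p = 0.288). Among 14 genes of cytokinin synthesis and activation none was called and the median was -0.08. The 2 with the smallest p were LOG7, which frees active cytokinin from its nucleotide (-0.30 ± 0.13, edgeR adjusted p = 0.299), and the isopentenyltransferase IPT3 (-0.36 ± 0.17, adjusted p = 0.382). With library size as the only scaling, the median of all genes moved up by 0.106, and the medians of the receptor and synthesis lists moved to 0.06 and 0.02, while those of the type-A, response factor and breakdown lists stayed below 0. ARR4, the 1 edgeR call of the cytokinin lists, was not called under that scaling (edgeR, adjusted p = 0.0501). The receptor median was 0.03 without hy5 BA 2, the type-B median was -0.01 without hy5 Control 1, and the type-A median was -0.27 without hy5 BA 2.

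**Figure D3:**
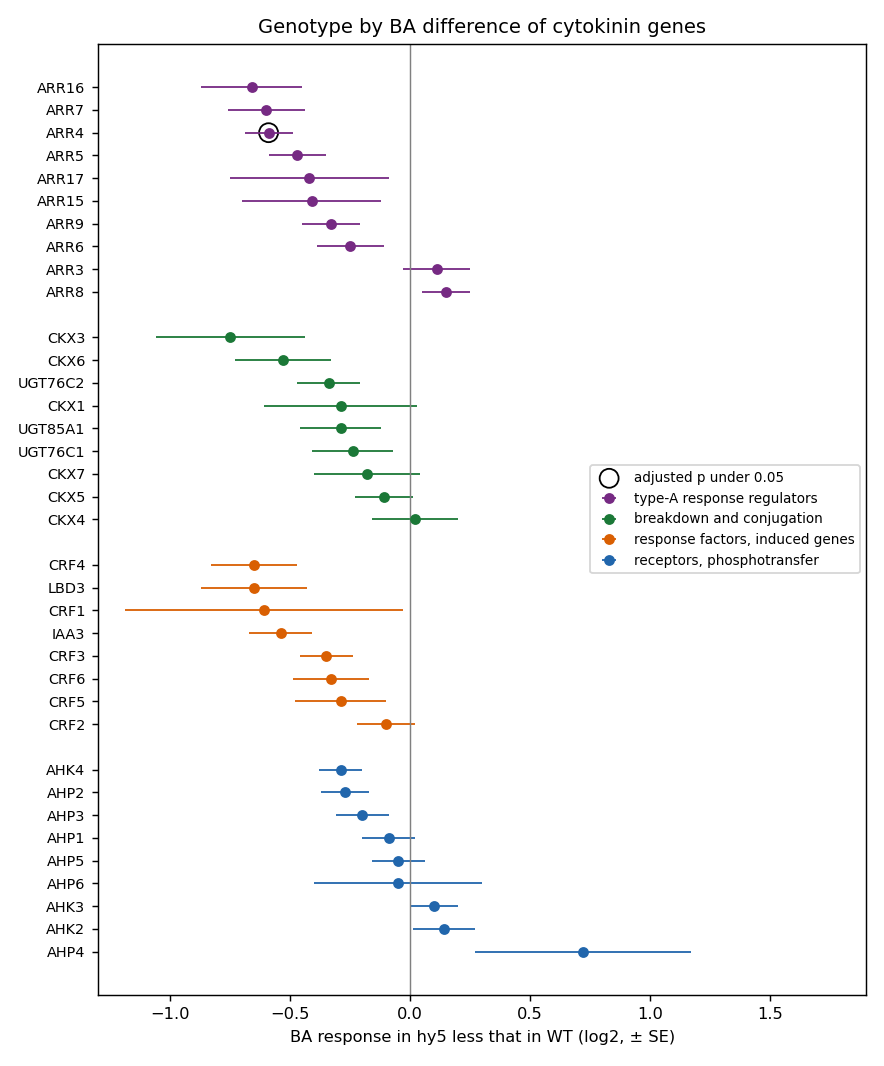
Difference in BA response, hy5 minus WT (log2, with its standard error as the bar) of each tested cytokinin gene in 4 lists. ARR4 alone is circled as called, 8 of 10 type-A regulators and 8 of 8 response factors and induced genes lie below 0, and the receptors and phosphotransfer genes lie on both sides.

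A set of 5 named genes, ARR4 among them, rose with BA in both genotypes and rose by a smaller fold in hy5. ACS5 (AT5G65800, chr5:26330746-26332812, minus strand), an ACC synthase of ethylene synthesis whose protein cytokinin is known to stabilise, had 16.6 and 13.6 CPM in hy5 BA and 7.5 and 6.36 CPM in hy5 Control, against 10.3 and 9.85 CPM in WT BA and 2.02 and 2.16 CPM in WT Control. The mutant was above WT in either medium, with no overlap between the groups. The fold difference was -1.15 ± 0.20 on the log2 scale (edgeR, adjusted p = 0.0211), but in CPM the rise was nearly equal, at 8.15 CPM in hy5 and 8 CPM in WT. ACS5 was the 1 gene of the 99 whose difference changed sign on the CPM scale. The thioredoxin superfamily gene AT2G30540 (chr2:13011105-13012043, minus strand) had 16.9 and 13.8 CPM in hy5 BA and 3.76 and 5.37 CPM in hy5 Control, against 17.0 and 20.7 CPM in WT BA and 2.37 and 2.35 CPM in WT Control. Its BA levels were close in the genotypes and its Control level was higher in hy5, with an interaction of -1.25 ± 0.25 (edgeR, adjusted p = 0.0492).

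SDR2 (AT3G51680, chr3:19173484-19174739, minus strand), a short-chain dehydrogenase-type gene, had 47.3 and 40.5 CPM in hy5 BA and 20.1 and 15.8 CPM in hy5 Control, against 50 and 50.7 CPM in WT BA and 10.9 and 10.7 CPM in WT Control. The acyltransferase family gene AT5G47980 (chr5:19428888-19430517, plus strand) had 24.1 and 22.2 CPM in hy5 BA and 17.0 and 14.7 CPM in hy5 Control, against 19.7 and 20.7 CPM in WT BA and 7.67 and 5.71 CPM in WT Control. In both genes the WT Control libraries were the lowest and the hy5 Control libraries lay between them and the BA groups. The interactions were -0.92 ± 0.15 (edgeR, adjusted p = 0.0211) and -1.04 ± 0.16 (edgeR, adjusted p = 0.0178). None of the 5 genes was called without WT BA 1 (adjusted p 0.0513 to 0.0532), WT BA 2 (0.0602 to 0.113), hy5 Control 1 (0.0583 to 0.134) or hy5 BA 2 (0.122 to 0.241). Without WT Control 1, WT Control 2 and hy5 Control 2, 4, 3 and 3 of them were called. Library size only ended the calls of ARR4 and AT2G30540, limma-voom that of AT2G30540, and none of the 5 was called with hy5 Control 1 and hy5 BA 2 both left out.

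In 6 further named genes BA raised the level in WT, while no change passed in hy5. RSL4 (AT1G27740, chr1:9654475-9656089, plus strand), the bHLH factor that drives root hair growth, had 11.6 and 9.05 CPM in hy5 BA and 12.3 and 11.1 CPM in hy5 Control, against 10.7 and 12.0 CPM in WT BA and 5.82 and 5.39 CPM in WT Control. The WT Control libraries were low and the other 3 groups overlapped. The interaction was -1.19 ± 0.18 (edgeR, adjusted p = 0.0146), from a BA response of -0.18 in hy5 (adjusted p = 0.403) and of 1.01 in WT. Among the other root hair regulators, RSL1 had an interaction of -0.64 ± 0.21 (edgeR, adjusted p = 0.189), RSL2 one of 0.14 ± 0.20 and RHD6 one of -0.50 ± 0.16 (adjusted p = 0.217). RSL4 was the 1 call among 13 root hair genes, whose median was -0.07. The 4 root hair markers, RSL4 included, summed to 55.3 and 52.4 CPM in hy5 BA and 58.4 and 55.8 CPM in hy5 Control, against 78.4 and 99.2 CPM in WT BA and 78.8 and 70.8 CPM in WT Control. In whole roots, fewer cells of a type and less RNA per cell cannot be told apart, and the part of root hair number in the RSL4 values was not tested.

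AT4G22620 (chr4:11907355-11908357, plus strand), a gene of the SAUR auxin-responsive family and the 1 call among 42 SAUR genes, had 24.7 and 20.7 CPM in hy5 BA and 20.8 and 18.3 CPM in hy5 Control, against 20.4 and 21.9 CPM in WT BA and 8.08 and 8.41 CPM in WT Control. As for RSL4, WT Control alone was low. The interaction was -1.14 ± 0.14 (edgeR, adjusted p = 0.00516). Among the runs that left out 1 library, the call was lost only without hy5 Control 1. It was also lost with hy5 Control 1 and hy5 BA 2 both left out. AT3G28600 (chr3:10722394-10723995, plus strand), a P-loop nucleoside triphosphate hydrolase gene, had 77.5 and 67.7 CPM in hy5 BA and 70.3 and 65.7 CPM in hy5 Control, against 57.8 and 50.1 CPM in WT BA and 23.7 and 25.1 CPM in WT Control. Its hy5 groups overlapped and both lay above WT BA, which lay above WT Control. The interaction was -1.05 ± 0.12 (edgeR, adjusted p = 0.00311), and the adjusted p stayed between 0.00178 and 0.0303 whichever single library was left out, but with hy5 Control 1 and hy5 BA 2 both left out it was 0.0509 at an interaction of -0.91, so the call was lost.

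WRKY23 (chr2:19404802-19407098), a WRKY transcription factor induced by auxin in roots, had 42.0 and 43.3 CPM in hy5 BA and 39.4 and 39.5 CPM in hy5 Control, against 40.4 and 37.8 CPM in WT BA and 22.7 and 24.2 CPM in WT Control, with an interaction of -0.63 ± 0.10 (edgeR, adjusted p = 0.0178). ACS8 (chr4:17752079-17754157), another ACC synthase, had 29.0 and 27.3 CPM in hy5 BA and 35.1 and 30.9 CPM in hy5 Control, against 17.8 and 16.8 CPM in WT BA and 13.0 and 13.6 CPM in WT Control, with an interaction of -0.62 ± 0.12 (edgeR, adjusted p = 0.0411). IAA13, an Aux/IAA repressor, had an interaction of -0.50 ± 0.10 (edgeR, adjusted p = 0.0411), and it overlaps AT2G33300 on the other strand. In WRKY23 only WT Control was low, whereas ACS8 was higher in hy5 in either medium. Of 68 WRKY genes 2 were called (WRKY23 and WRKY29, list median -0.17), and of 40 Aux/IAA and GH3 genes IAA13 was the 1 call (list median -0.16). Of the 6 genes, 1 was called without hy5 Control 1, 2 without hy5 BA 2 (adjusted p 0.0953 to 0.251 for the other 4), and 3 without each of WT BA 1, WT BA 2 and hy5 Control 2. Library size only ended the calls of WRKY23, ACS8 and IAA13, and none of the 6 was called with hy5 Control 1 and hy5 BA 2 both left out.

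**Figure D4:**
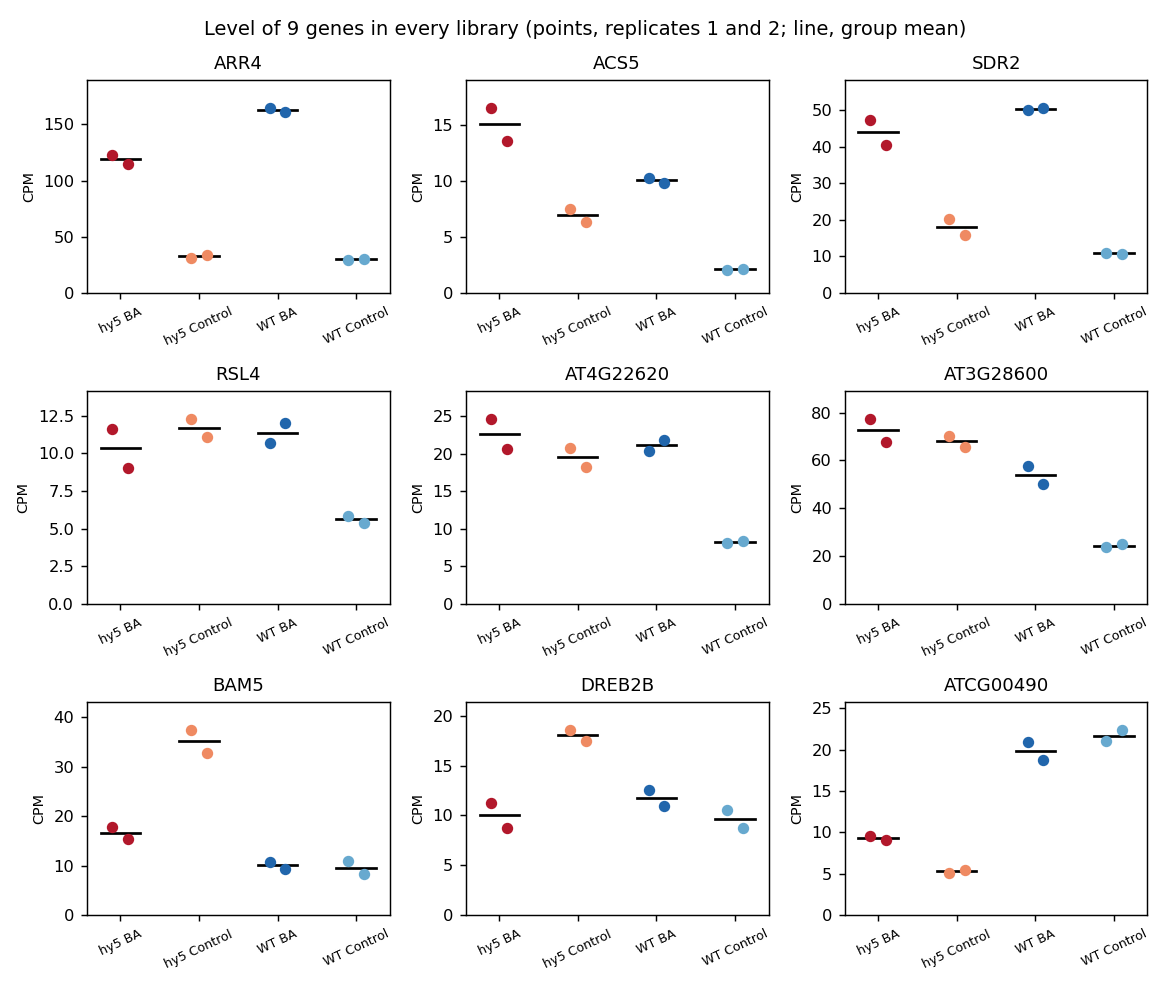
Level in CPM (vertical axes, from 0) of 9 genes in every library, with groups from left to right hy5 BA, hy5 Control, WT BA and WT Control, points for replicates and a line for the mean. WT Control is low in RSL4, AT4G22620 and AT3G28600, hy5 Control is high in BAM5 and DREB2B, and ATCG00490 is lowest in hy5 Control.

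Another pattern was a fall with BA in hy5 alongside a WT response that was a rise, a smaller fall or no call, seen in 10 named genes, where 8.01% of all genes fell in hy5 and 4.33% in WT. BAM5 (AT4G15210, chr4:8666334-8669526, minus strand), a beta-amylase, had 17.8 and 15.4 CPM in hy5 BA and 37.5 and 32.8 CPM in hy5 Control, against 10.7 and 9.37 CPM in WT BA and 11.0 and 8.25 CPM in WT Control. The WT groups overlapped, and BA brought the hy5 level part of the way down to theirs. The interaction was -1.13 ± 0.18 (edgeR, adjusted p = 0.0238), with a BA response of -1.08 in hy5 and of 0.05 in WT (adjusted p = 0.862). DREB2B (AT3G11020, chr3:3455355-3457342, plus strand), a drought-responsive transcription factor, had 11.3 and 8.71 CPM in hy5 BA and 18.6 and 17.5 CPM in hy5 Control, against 12.6 and 10.9 CPM in WT BA and 10.5 and 8.79 CPM in WT Control. Here hy5 Control was the highest group, hy5 BA overlapped both WT groups, and both WT BA libraries lay above both WT Control ones, a difference of 0.28 that did not pass (edgeR, adjusted p = 0.194). The interaction was -1.13 ± 0.18 (edgeR, adjusted p = 0.0178). It overlaps AT3G11030 on the other strand, which shares 70.3% of its 31-base words, and no strand setting is stated for the libraries, so the source of its counts is uncertain.

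WRKY29 (chr4:12291632-12293367), a WRKY factor of flagellin signalling, had 3.86 and 3.71 CPM in hy5 BA and 7.62 and 7.33 CPM in hy5 Control, against 3.72 and 4.03 CPM in WT BA and 3.75 and 3.65 CPM in WT Control. Only hy5 Control stood apart, and the interaction was -1.05 ± 0.19 (edgeR, adjusted p = 0.0258). It too overlaps an antisense gene, AT4G23560. The acyl activating enzyme gene AAE12 (chr1:24512438-24514659) had 16.1 and 15.7 CPM in hy5 BA and 24.9 and 32.6 CPM in hy5 Control, against 7.07 and 4.77 CPM in WT BA and 3.86 and 3.43 CPM in WT Control. Its hy5 BA libraries lay below hy5 Control while its WT BA libraries lay above WT Control, although the WT difference of 0.69 did not pass (adjusted p = 0.0727), and the interaction of -1.55 ± 0.26 (edgeR, adjusted p = 0.0393) was the most negative of the named genes. The sequence of AAE12 shares 15.7% of its words with other genes. The glycosyltransferase gene AT3G22250 (chr3:7867753-7870229) had 26.9 and 21.6 CPM in hy5 BA and 43.9 and 40.4 CPM in hy5 Control, against 14.7 and 16.2 CPM in WT BA and 11.8 and 8.09 CPM in WT Control. It fell by 0.79 in hy5 and rose by 0.63 in WT, with an interaction of -1.43 ± 0.22 (edgeR, adjusted p = 0.0372).

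The other 5 genes had interactions from -0.96 to -0.55. They were the glucosyltransferase UGT73C7 (-0.96 ± 0.19, edgeR adjusted p = 0.045), the carbohydrate-binding protein gene AT1G10150 (-0.95 ± 0.16, adjusted p = 0.0211), the protease inhibitor AT2G38870 (-0.93 ± 0.18, adjusted p = 0.0373), the pyruvate decarboxylase AT4G33070 of ethanol fermentation (-0.61 ± 0.12, adjusted p = 0.045) and the DREB-type factor RAP2.9 (-0.55 ± 0.11, adjusted p = 0.0368). RAP2.9 differed from the rest in that WT fell as well: it had 69.9 and 61.8 CPM in hy5 BA and 110 and 120 CPM in hy5 Control, against 89.3 and 91.3 CPM in WT BA and 109 and 106 CPM in WT Control. AT1G10150 shares 98.5% of its words with the overlapping antisense gene AT1G10155, and its counts cannot be assigned to either with certainty. None of the 10 genes was called without hy5 BA 2 (adjusted p 0.115 to 0.258), 1 without hy5 Control 1, 1 without WT BA 1, 2 without WT BA 2 and 2 without hy5 Control 2. Library size only ended 6 of the calls (AAE12, WRKY29, UGT73C7, AT2G38870, RAP2.9 and AT4G33070), and none of the 10 was called with hy5 Control 1 and hy5 BA 2 both left out.

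Because HY5 binds ACGT-containing elements, of which the G-box CACGTG is the best known, the stretch from 250 bases before to 50 bases after the annotated start of each gene was searched on both strands. CACGTG was present in 15 of the 99 genes with a more negative response (15.2%), in 0 of 8 annotated genes with a more positive one, and in 8.41% of all 22536 tested genes with such a stretch. The core ACGT, which CACGTG contains, was in 54.5% of the 99 and in 50.7% of all. The W-box letters TTGACC or TTGACT, read by WRKY factors, were in 37.4% against 32.8%, CGCGT with its reverse complement in 13.1% against 9.39%, and AGATCT in 9.09% against 7.01%. These shares are descriptions, without a test, and a match is not a bound site. The 250 bases upstream of 4 of the genes are shown to let the layout be seen, from the RefSeq genome of the build TAIR10.1 and 5′ to 3′ on each gene's own strand, with CACGTG and other ACGT cores in capitals. MAPKKK17, a kinase of abscisic acid signalling, and the bHLH gene AT4G37850 were chosen for their G-box after their values had been seen.
DREB2B, chr3:3455105-3455354, plus strand: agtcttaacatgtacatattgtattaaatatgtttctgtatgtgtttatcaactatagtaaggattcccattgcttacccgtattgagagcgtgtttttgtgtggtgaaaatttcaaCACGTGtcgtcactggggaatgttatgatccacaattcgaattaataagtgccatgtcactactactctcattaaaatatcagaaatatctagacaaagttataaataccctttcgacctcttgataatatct
MAPKKK17, chr2:13800100-13800349, minus strand: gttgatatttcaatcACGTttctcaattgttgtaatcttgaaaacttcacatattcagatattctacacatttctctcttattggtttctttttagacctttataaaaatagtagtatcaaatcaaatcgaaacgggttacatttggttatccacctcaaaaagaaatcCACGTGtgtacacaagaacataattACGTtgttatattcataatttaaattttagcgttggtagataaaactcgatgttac
AT4G37850, chr4:17797902-17798151, minus strand: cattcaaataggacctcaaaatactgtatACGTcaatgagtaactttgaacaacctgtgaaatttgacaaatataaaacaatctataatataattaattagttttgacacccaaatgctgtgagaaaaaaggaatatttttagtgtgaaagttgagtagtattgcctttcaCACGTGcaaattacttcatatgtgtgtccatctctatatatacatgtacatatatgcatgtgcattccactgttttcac
AT4G22620, chr4:11907105-11907354, plus strand: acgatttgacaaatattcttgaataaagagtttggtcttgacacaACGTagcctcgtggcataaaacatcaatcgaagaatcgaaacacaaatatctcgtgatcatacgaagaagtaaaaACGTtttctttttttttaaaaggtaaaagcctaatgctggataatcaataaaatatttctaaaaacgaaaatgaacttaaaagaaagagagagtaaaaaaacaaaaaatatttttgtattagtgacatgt

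The G-box began 133 bases before the start in DREB2B, 81 bases before it in MAPKKK17 and 79 bases before it in AT4G37850, and AT4G22620 had ACGT cores at 205 and 130 bases without a G-box. MAPKKK17 had 49.8 and 43.6 CPM in hy5 BA and 39.6 and 36.6 CPM in hy5 Control, against 45.3 and 40.4 CPM in WT BA and 22.3 and 20.4 CPM in WT Control. AT4G37850 had 25.1 and 24.9 CPM in hy5 BA and 29.9 and 30.6 CPM in hy5 Control, against 14.5 and 12.9 CPM in WT BA and 10.2 and 8.47 CPM in WT Control. The genes with a G-box thus did not follow a single pattern: DREB2B fell in hy5, MAPKKK17 rose in both genotypes, and AT4G37850 had a response of -0.28 in hy5 that did not pass (edgeR, adjusted p = 0.0506) and rose by 0.55 in WT. Their interactions were -1.13 ± 0.18, -0.71 ± 0.12 (edgeR, adjusted p = 0.0211) and -0.83 ± 0.13 (adjusted p = 0.0178).

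Of the 11 genes with a more positive response in hy5, 3 carried locus codes of the chloroplast genome and 1 was a nuclear gene of the chloroplast ATP synthase. ATCG00490 had 9.53 and 9.05 CPM in hy5 BA and 5.05 and 5.49 CPM in hy5 Control, against 20.9 and 18.8 CPM in WT BA and 21.0 and 22.4 CPM in WT Control. The hy5 groups were apart and the WT groups nearly met, and the interaction was 0.95 ± 0.14 (edgeR, adjusted p = 0.0145). ATCG00020 had 5.75 and 4.63 CPM in hy5 BA and 3.18 and 2.30 CPM in hy5 Control, against 30.9 and 33.5 CPM in WT BA and 34.1 and 32.9 CPM in WT Control, with an interaction of 0.98 ± 0.18 (edgeR, adjusted p = 0.0335). For ATCG00680 the value was 1.17 ± 0.22 (edgeR, adjusted p = 0.0352). These loci carried no name in the annotation used. ATPC1 (AT4G04640, chr4:2350498-2352025, minus strand), the gamma subunit of the chloroplast ATP synthase, had 1.27 and 1.27 CPM in hy5 BA and 0.582 and 0.590 CPM in hy5 Control, against 10.8 and 10.1 CPM in WT BA and 10.9 and 11.9 CPM in WT Control. In all 4 genes the hy5 libraries lay below the WT ones in either medium, and the hy5 BA libraries lay above the hy5 Control ones. The interaction of ATPC1 was 1.24 ± 0.26 (edgeR, adjusted p = 0.0463).

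The wider plastid and light-harvesting genes leaned the same way. Of 72 tested loci of the chloroplast genome, 66 had an interaction above 0, against 10962 of all 22682 genes tested, and the median was 0.89. At an unadjusted p under 0.05, 35 of them were more positive, against 5.3% of all genes. Their median BA response was 0.35 in hy5 and -0.43 in WT, so both a rise in hy5 and a fall in WT entered the value. All loci of that genome summed to 321 and 392 CPM in hy5 BA and 269 and 349 CPM in hy5 Control. The WT sums were 498 and 389 CPM in WT BA and 658 and 538 CPM in WT Control, and the hy5 groups overlapped. Of 22 nuclear photosynthesis genes none was called by edgeR and 1 by DESeq2, and 20 were above 0, with a median of 0.57. That median rested on single libraries: it was 0.21 without hy5 Control 1, 1.57 without hy5 Control 2 (22 of 22 above 0 and 3 called), 0.36 without WT Control 2 and 0.90 without WT BA 1. It was 0.18 when hy5 Control 1 and hy5 BA 2 were both left out, and 1.16 with limma-voom. The photosystem gene LHCA3 had 3.16 and 3.12 CPM in hy5 BA and 1.07 and 1.96 CPM in hy5 Control, against 21.7 and 16.8 CPM in WT BA and 17.8 and 20.7 CPM in WT Control, an interaction of 1.05 ± 0.30 (edgeR, adjusted p = 0.158), and it is named for its small unadjusted p. Summed over the list, these genes stood at 130 and 133 CPM in hy5 BA and 75.7 and 104 CPM in hy5 Control, against 448 and 399 CPM in WT BA and 361 and 415 CPM in WT Control. hy5 Control 1 was the lowest library. The 7 shoot markers, which share genes with that list and none of them at 0 in all libraries, summed to 22.6 and 28 CPM in hy5 BA and 9.21 and 18.0 CPM in hy5 Control, against 65.4 and 51.7 CPM in WT BA and 53.8 and 63.9 CPM in WT Control. Their part in the plastid result was not tested. Libraries were made from polyadenylated RNA, in which organelle transcripts are poorly captured, and 66 of 73 tested loci of the mitochondrial genome were also above 0 (median 0.47, none called). That median was 0.20 without hy5 BA 2, with 52 of 73 above 0, and 0.19 without hy5 Control 1 and hy5 BA 2. None of the 4 called plastid genes was called without hy5 Control 1 (adjusted p 0.075 to 0.23) or without hy5 BA 2 (adjusted p 0.0694 to 0.251), and 1 was called without each of WT BA 2, hy5 Control 2 and hy5 BA 1. ATPC1 was not called with RLE scaling (adjusted p = 0.0513) or limma-voom (adjusted p = 0.0874), and ATCG00020 was the 1 call with hy5 Control 1 and hy5 BA 2 both left out.

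The remaining 7 genes with a more positive response had values from 0.53 to 1.28. The arabinogalactan protein gene AGP30 had 81.0 and 92.7 CPM in hy5 BA and 68.6 and 65.4 CPM in hy5 Control, against 96.7 and 87.1 CPM in WT BA and 106 and 101 CPM in WT Control, an interaction of 0.54 ± 0.11 (edgeR, adjusted p = 0.0463). It rose with BA in hy5, and its lower WT BA level did not pass as a change. AT5G40910, a TIR-NBS-LRR resistance-type gene, had 32.3 and 33.9 CPM in hy5 BA and 32.2 and 33.5 CPM in hy5 Control, against 35.4 and 31 CPM in WT BA and 49.3 and 46.1 CPM in WT Control. Only WT Control stood apart, on the high side, with an interaction of 0.53 ± 0.11 (edgeR, adjusted p = 0.0463). The proton pump gene AHA10 (1.28 ± 0.26, adjusted p = 0.0463), with 1.60 to 3.16 CPM, was called in no run that left out a library. Others were the importin gene IMPA-8 (0.97 ± 0.19, adjusted p = 0.0411), the inositol phosphatase 5PTase12 (0.74 ± 0.15, adjusted p = 0.0463), AT3G47675 (1.09 ± 0.21, adjusted p = 0.0335) and LpxC4 (0.53 ± 0.09, adjusted p = 0.0255). 5PTase12 and AT3G47675 overlap another gene, and every 31-base word of LpxC4 also occurs in AT1G25210, so its counts cannot be told apart from those of that gene. None of the 7 was called without WT BA 1, WT BA 2, hy5 Control 1 or hy5 BA 2, where the adjusted p lay between 0.0513 and 0.308. RLE scaling ended 4 of the 7 calls (AT5G40910, AGP30, 5PTase12 and AHA10).

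Sequence sharing also bore on AT5G36670, the gene with the most negative value of all and 1 of the 2 called in every run. It was outside the rule for named genes because of its low level, and it was picked out after its values had been seen. Its locus had 2.25 and 3.40 CPM in hy5 BA and 1.62 and 1.65 CPM in hy5 Control, against 2.24 and 3.20 CPM in WT BA and 0 and 0 CPM in WT Control. All of its 31-base words occur in AT5G36740, which had 3.41 and 2.35 CPM in hy5 BA and 2.63 and 3.32 CPM in hy5 Control, against 3.03 and 1.95 CPM in WT BA and 6 and 5.74 CPM in WT Control. Added together, the 2 loci had 5.67 and 5.75 CPM in hy5 BA and 4.25 and 4.97 CPM in hy5 Control, against 5.26 and 5.15 CPM in WT BA and 6 and 5.74 CPM in WT Control. The sum varied less than either copy, so the division of reads between these copies is uncertain and no fold is given. In all, 12 of the 99 and 3 of the 11 genes shared over 10% of their words with another gene, and 15 and 2 overlapped another gene in position.

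Other pathways were described through lists. Ethylene synthesis and response held 2 calls among 15 genes, ACS5 and ACS8, with a median interaction of -0.30 and 7 more negative at an unadjusted p under 0.05. A further ACC synthase, ACS2, had 48.4 and 48.3 CPM in hy5 BA and 29.1 and 29.2 CPM in hy5 Control, against 25.9 and 33.1 CPM in WT BA and 13.3 and 11.9 CPM in WT Control. It rose with BA in both genotypes and its interaction of -0.49 ± 0.14 did not pass (edgeR, adjusted p = 0.137). The list of ERF and DREB transcription factors had 2 calls among 52, DREB2B and RAP2.9, with a median of -0.15. It was gathered by symbol or synonym and may be incomplete. The called gene AT2G44940, annotated as an integrase-type DNA-binding protein, was outside it (-0.70 ± 0.11, edgeR, adjusted p = 0.0178). Among 10 listed hypoxia genes the pyruvate decarboxylase AT4G33070 was the 1 edgeR call and the median was -0.04, and the ethylene response factor ERF71 (HRE2) had -0.70 ± 0.17 (edgeR, adjusted p = 0.0937). DESeq2 called 2 of the 10. Another pyruvate decarboxylase gene, PDC2, was outside the list and was called as well (-0.48 ± 0.10, edgeR, adjusted p = 0.0463).

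The lists are partial. The called AT2G30540 of the thioredoxin superfamily was in none. The 5 CC-type glutaredoxins may not be all of that family, and the product name of AT2G30540 does not tell whether it is a further member. The absence of a call among the 5 therefore does not speak for the family as a whole. Also outside them were the called jasmonate-metabolism genes CYP94B3 and ST2A, described further below. DESeq2 called 2 of 16 jasmonate genes and 1 of 20 early touch and wound genes. The main edgeR fit called no listed member among 16 jasmonate genes (median -0.21, with 14 below 0), 20 early touch and wound genes (-0.12), 56 XTH wall enzymes and expansins (-0.15), 14 calmodulin-like genes (-0.20), 5 CC-type glutaredoxins (-0.25), 12 genes of auxin transport (-0.12), 12 of nitrate and ammonium (-0.06) or 5 heat shock genes (-0.14). The same held for 22 light signalling genes (0.01), 10 flavonoid genes (0.11), 11 clock genes (0.11, and -0.04 without hy5 Control 1 and hy5 BA 2) and 40 cyclins, CDKs and their inhibitors (-0.01). With library size only, the medians of the root hair, nitrate and hypoxia lists turned positive (0.03, 0.05 and 0.06), as did that of the cyclins (0.09), and no other median in these lists changed sign under that scaling. Single libraries also turned small medians: without WT Control 2 those of the calmodulin-like, heat shock and root hair lists were 0.01, 0.02 and 0.04, and that of touch and wound genes was -0.01 with 10 of 20 below 0. The root hair median was 0.04 without WT BA 2 as well, the hypoxia median was 0.05 without hy5 Control 2, and that of light signalling was -0.01 without hy5 Control 1. The median of the cyclins was 0.03 without WT Control 1 and 0.02 without hy5 Control 2. At the 2-fold level the model recovered 70.1% of 67 changed genes in simulated data and at 1.5-fold 38.8% of 67, so a list without calls may hold differences too small to be called.

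**Figure D5:**
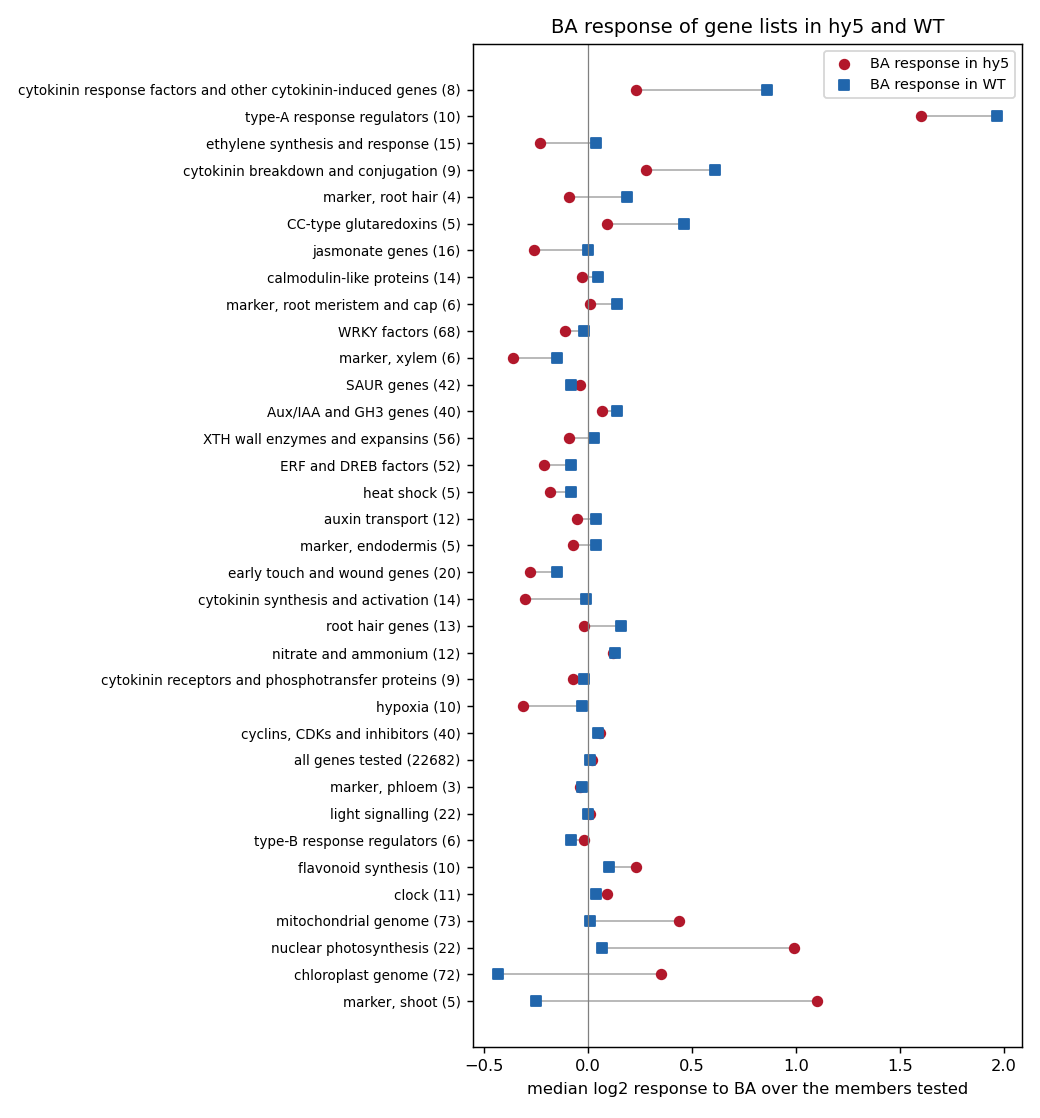
Median BA response (log2, horizontal axis) of each gene list in hy5 (circles) and WT (squares), with the number of members tested in brackets and lists ordered by their median interaction. Type-A regulators had medians of 1.60 in hy5 and 1.97 in WT, and nuclear photosynthesis genes had 0.99 in hy5 and 0.07 in WT.

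Of 6 xylem markers none was called and the median interaction was -0.17 with all libraries, but it was -0.04 with 3 of 6 below 0 without WT Control 2 and -0.33 without WT Control 1. They summed to 469 and 452 CPM in hy5 BA and 572 and 579 CPM in hy5 Control, against 350 and 386 CPM in WT BA and 441 and 358 CPM in WT Control. Medians were -0.19 for 6 root meristem and cap markers, -0.01 for 3 phloem markers and -0.12 for 5 endodermis markers, without a call. The other 2 marker lists lay further from 0. The 4 root hair markers were all below 0, with a median of -0.28 and 1 call (RSL4). The 5 tested shoot markers were all above 0, with a median of 1.13 and no call. With library size only the phloem median was 0.09, and leaving out hy5 Control 1 and hy5 BA 2 the median for meristem and cap was 0.06. The part of tissue composition in the calls was not tested.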

How the data were processed

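RNA was measured in 8 libraries of Arabidopsis roots, 2 in each of 4 groups. The authors quantified transcripts with Salmon, and TAIR10 is the build named, per the submitters' processing notes, where no versions are stated. The deposited files give, per the file headers, an estimated count, a TPM value and an effective length for each of 48332 transcripts. RNA was selected with oligo-dT, per the labels' protocols. Estimated counts were summed to 27628 genes by the identifier before the dot and rounded, and TPM and effective length served only for a length offset tried as an alternative. No sample column was left unused.

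Genes with too few counts were filtered with edgeR's default minimum count of 10 (about 0.307 CPM), which left 22682 and removed 4946. The main model was edgeR 4.0.16 in R 4.3.3, with TMM scaling, 4 group means, a robust quasi-likelihood fit with 4 residual degrees of freedom, and Benjamini-Hochberg adjustment over all genes tested. The interaction and the simple effects were contrasts of these means, and a standard error is the absolute log2 difference over the square root of its F value. CPM values are scaled by TMM. DESeq2 1.42.0 and limma 3.58.1 (voom) were alternatives, with another scaling, no filter, a length offset, a replicate block, each library left out and a threshold of 0.1. The model was tested on simulated counts for the interaction over 22682 genes: it recovered 38.8% of 67 genes changed 1.5-fold, 70.1% of 67 changed 2-fold and 97% of 66 changed 4-fold, with 18 false calls. In this simulated set the false share of the calls was above the 0.05 aimed at, so the threshold may be too lenient for the calls given here.

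Genes were named by rule: the 15 most negative and all positive calls whose mean log2 CPM was 1 or more, HY5 and HYH, every called member of a list, and, in each cytokinin list without a call, the 2 with the smallest p. There were 34 lists, 6 of them markers, with 812 distinct members. The lists, the rule and the comparison were chosen with earlier results of these data known. Further genes of a list are named to show members side by side. Positions, symbols and sequences are from the RefSeq annotation of TAIR10.1, which held 27420 of the 27628 genes. The other 208 had no entry. Shared sequence is the percentage of a gene's 31-base words found in exons of another gene.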

Additional observations from a re-analysis of the deposited data

Results flagged for a closer look

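In each of these 32 named genes the interaction test over all 8 libraries called a difference in BA response between the genotypes. No cause was tested. Most of these calls were lost if either of the libraries hy5 BA 2 and hy5 Control 1 was dropped. Because of shared sequence, the counts of DREB2B, AT1G10150 and LpxC4 cannot be assigned to these genes with certainty. For ACS5 the rise in CPM was nearly equal in the genotypes. The response was more negative in hy5 by -1.55 for AAE12, -1.43 for AT3G22250, -1.25 for AT2G30540, -1.19 for RSL4, -1.15 for ACS5, -1.14 for AT4G22620, -1.13 for DREB2B and for BAM5, -1.05 for AT3G28600 and for WRKY29, -1.04 for AT5G47980, -0.96 for UGT73C7, -0.95 for AT1G10150, -0.93 for AT2G38870 and -0.92 for SDR2, all on the log2 scale. Smaller differences were -0.63 for WRKY23, -0.62 for ACS8, -0.61 for AT4G33070, -0.59 for ARR4, -0.55 for RAP2.9 and -0.50 for IAA13.

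The response was more positive in hy5 by 1.28 for AHA10, 1.24 for ATPC1, 1.17 for ATCG00680, 1.09 for AT3G47675, 0.98 for ATCG00020, 0.97 for IMPA-8, 0.95 for ATCG00490, 0.74 for 5PTase12, 0.54 for AGP30 and 0.53 for LpxC4 and for AT5G40910.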

How the results depend on the processing

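With all libraries and an adjusted p under 0.05, 99 genes were more negative and 11 more positive. The 99 became 255 at an adjusted p under 0.1, 33 with library size only, 272 with DESeq2 and 2 without both hy5 Control 1 and hy5 BA 2, and between 4 and 318 with 1 library left out. The 11 became 49 at an adjusted p under 0.1, 6 with RLE scaling, 22 with library size only, 21 without a filter, 22 with DESeq2 and 3 without both libraries, and between 0 and 44 with 1 library left out. Library size only made 60% of calls negative, against 90% with TMM, and leaving out hy5 Control 2 made it 47.8%. Leaving out hy5 Control 1 gave 5 calls but 2091 genes at an unadjusted p under 0.05. limma-voom gave 97 and 10 calls, and the length offset 109 and 16. On the CPM scale the difference of ACS5 was 0.151 CPM and that of HYH -0.231 CPM, each opposite in sign to its log2 value. Over the 32 named called genes and all alternatives, 324 of 538 values kept their call and direction, 213 kept the direction only and 1 reversed, and DESeq2 gave no adjusted p for 6 genes. The cause of these changes was not tested. Kept directions lend the calls no support, since the library ratios of the called genes did not overlap between the genotypes.

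Deviations of same-numbered libraries correlated between -0.068 and 0.024, so no strong shared effect of the replicate number was seen. These values cannot show whether samples were grown or prepared in pairs. A fit with the replicate block gave 91 and 10 calls, of which 80 were among the 110. AT2G30540, IAA13, AAE12, ATPC1, AT5G40910 and AGP30 were not called in that fit.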

Other observations

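A few called genes outside the naming rule are described singly; they were chosen after their values had been seen and stand for no group. GA2OX2, which inactivates gibberellins, had 60.3 and 50.4 CPM in hy5 BA and 51.9 and 49.5 CPM in hy5 Control, against 66.1 and 66.6 CPM in WT BA and 40.9 and 36.6 CPM in WT Control. Only WT Control was low, and the interaction was -0.65 ± 0.12 (edgeR, adjusted p = 0.0335). CYP94B3, which oxidises the jasmonate hormone jasmonoyl-isoleucine, had 123 and 102 CPM in hy5 BA and 212 and 204 CPM in hy5 Control, against 111 and 108 CPM in WT BA and 132 and 142 CPM in WT Control. Here hy5 Control was high, and the interaction was -0.56 ± 0.12 (edgeR, adjusted p = 0.0464). ST2A, a sulfotransferase of hydroxyjasmonate, had 288 and 237 CPM in hy5 BA and 308 and 322 CPM in hy5 Control, against 441 and 380 CPM in WT BA and 265 and 313 CPM in WT Control, with an interaction of -0.77 ± 0.15 (edgeR, adjusted p = 0.0463).

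AZG1, a purine transporter also reported to carry cytokinin, had 129 and 115 CPM in hy5 BA and 105 and 109 CPM in hy5 Control, against 111 and 107 CPM in WT BA and 70.2 and 68 CPM in WT Control, an interaction of -0.47 ± 0.10 (edgeR, adjusted p = 0.0492). The peptide gene CLE2 had 38 and 32.8 CPM in hy5 BA and 49.6 and 56.7 CPM in hy5 Control, against 17.3 and 17.2 CPM in WT BA and 13.7 and 15.1 CPM in WT Control, an interaction of -0.85 ± 0.13 (edgeR, adjusted p = 0.0178). CLE2 was higher in hy5 in either medium, and it fell with BA in hy5 (-0.58), while its difference of 0.26 in WT did not pass (adjusted p = 0.119). The raffinose-pathway genes SIP1 and GolS3 had interactions of -0.68 ± 0.12 (edgeR, adjusted p = 0.0211) and -0.79 ± 0.16 (adjusted p = 0.0463), and the bZIP gene GBF6 had -0.49 ± 0.10 (adjusted p = 0.0492). Of 11 genes chosen in this way, MAPKKK17, NAI1 and AT4G37850 among them, none was called without hy5 BA 2, hy5 Control 2 or WT BA 1, 1 without hy5 Control 1 (CLE2) and 2 without WT BA 2.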
